A study of Mus musculus with 24 samples.

Results

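The 8 genes of the troponin complex were examined in left ventricle lacking the histone chaperone HIRA in cardiomyocytes: Tnnt1, Tnnt2 and Tnnt3 for troponin T, Tnni1, Tnni2 and Tnni3 for troponin I, and Tnnc1 and Tnnc2 for troponin C. They were found by the gene symbol of each array probe. Each of the 8 genes was held by 1 probe, so 8 of 26423 probes and 8 of 17742 named genes were used. Below, a gene is called measured where the annotation of a probe named it and no other gene. The genes were taken up with the difference between Hira CKO and control hearts already known, so that difference is described for them here and not tested.

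RNA came from non-scarred left ventricular free wall of mice at 6 weeks of age on a mixed C57BL6/J;129S1/SvImJ background, and each mouse was hybridized to 3 single-colour arrays, 24 arrays in all. The 4 Hira CKO mice (CKO_6300, CKO_6499, CKO_6672 and CKO_6707) carried aMHC-cre Tg/+ with Hira flox/-, and the 4 control mice (control_6706, control_6299, control_6675 and control_6497) carried aMHC-cre Tg/+ with Hira flox/+. Both groups carried the Cre transgene, which is driven by the α-myosin heavy chain promoter and acts in cardiomyocytes, and per the study's methods both carried 1 Rosa26 YFP reporter allele. Outside cardiomyocytes the Hira CKO mice had 1 null Hira allele and the control mice none. Values are array intensities after median scaling, given per mouse as the geometric mean of its 3 arrays, in the mouse order just given. A log2 difference is Hira CKO minus control, so 1 is a doubling.

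Troponin is the calcium switch of striated muscle. Troponin C binds calcium, troponin I holds the thin filament in its inhibited state, and troponin T anchors the complex to tropomyosin. Each subunit is encoded by several genes. In mouse, Tnnt1 and Tnni1 encode the slow skeletal muscle forms of T and I, Tnnt2 and Tnni3 the cardiac forms, and Tnnt3, Tnni2 and Tnnc2 the fast skeletal muscle forms, while Tnnc1 serves both slow skeletal and cardiac muscle. The slow skeletal form of troponin I is also made in the fetal heart and gives way to the cardiac form around birth.

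Of the 8 genes, the slow skeletal pair was higher in Hira CKO ventricle, Tnnt1 by 29.1-fold and Tnni1 by 1.80-fold, and the fast skeletal gene Tnnc2 was lower. The adult cardiac genes Tnnt2, Tnni3 and Tnnc1 had overlapping values. The values of the 4 Hira CKO mice lay wholly outside those of the 4 control mice for 3 of 8 troponin genes (Tnnt1, Tnni1 and Tnnc2), where 23.4% of all 17742 genes did so. The same 3 genes passed an adjusted p under 0.05 in the fit over all genes, in which 14.6% of genes passed, 4.94% higher and 9.65% lower. The balance of directions over all genes turned with the normalization, with 1251 genes higher and 973 lower after quantile normalization, while the same 3 troponin genes passed. Nothing is read from these shares, because the genes were chosen on this comparison. The median log2 difference was 0.12 over the 8 genes and -0.14 over all genes.

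**Figure D1:**
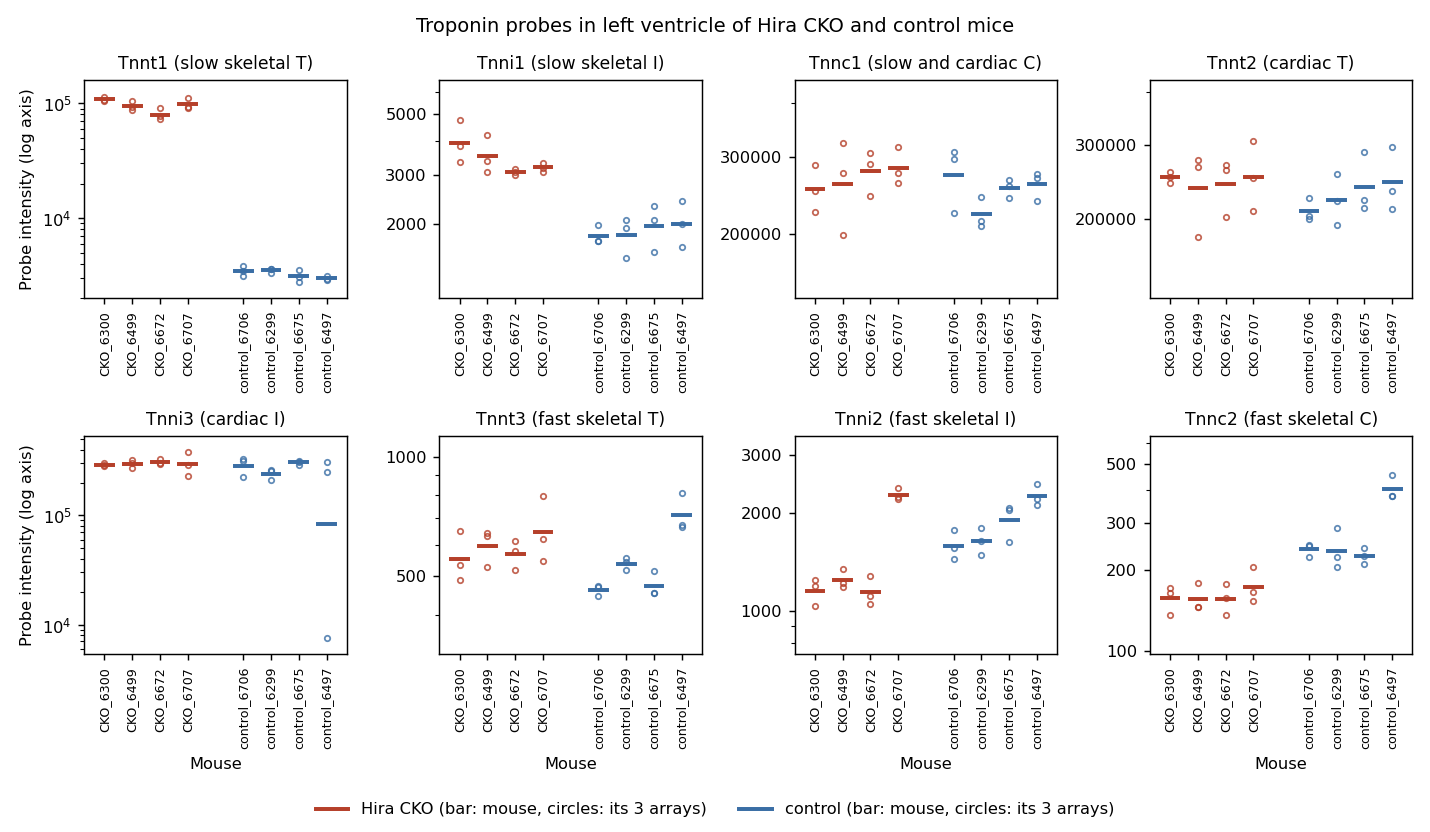
Probe intensity on a log axis for the 8 troponin genes, with mice along each horizontal axis (Hira CKO left, control right), a bar for the geometric mean of each mouse and open circles for its 3 arrays. Tnnt1 and Tnni1 separate the groups upward and Tnnc2 downward, and 1 array of mouse control_6497 reads 7484 for Tnni3.

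Tnnt1, which encodes slow skeletal troponin T, gave 108377, 94563, 79647 and 98491 in the Hira CKO mice, against 3441, 3502, 3130 and 2978 in the control mice. The means were 95269 ± 11927 in Hira CKO and 3263 ± 250 in control (SD, n = 4 each), a log2 difference of 4.86 (SE 0.11). Every Hira CKO array was above every control array. The single arrays ran from 72578 to 114475 in Hira CKO and from 2799 to 3793 in control, so the lowest Hira CKO array was 19.1-fold above the highest control array. Arrays of 1 mouse differed little, with a median SD of 0.14 on the log2 scale. Only 4 of 17742 genes had a larger positive difference. Taken 1 array number at a time, the difference was between 4.72 and 5.00, and with each mouse left out in turn it was between 4.80 and 4.95.

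The 250 bases before the start of Tnnt1, Tnni1 and Tnni3 are shown because Tnnt1 and Tnni1 are the slow pair that was higher and Tnni3 is the gene next to Tnnt1 that overlapped between groups. They come from RefSeq on GRCm38.p6, read 5′ to 3′ on the gene's own strand. Capitals mark matches on either strand to 7 short motifs of muscle promoters. CATTCC is the MCAT element bound by TEAD factors. The sites TGATAA and AGATAA are bound by GATA factors. An E-box, the site of basic helix-loop-helix factors, was searched as CAGCTG. The box that zinc finger factors of the Sp and Klf families bind was searched as CCACCC. An A/T-rich site of the MEF2 type was searched as TAAAAATA, and the TATA box as TATAAA. Matches of the same or different motifs were allowed to overlap.
Tnnt1, chr7:4515976-4516225, minus strand: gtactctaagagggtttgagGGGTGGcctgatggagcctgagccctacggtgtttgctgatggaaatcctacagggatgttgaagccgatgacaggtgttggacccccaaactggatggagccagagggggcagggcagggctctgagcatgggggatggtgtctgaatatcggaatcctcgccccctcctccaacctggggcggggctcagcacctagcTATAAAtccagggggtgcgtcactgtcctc
Tnni1, chr1:135799171-135799420, plus strand: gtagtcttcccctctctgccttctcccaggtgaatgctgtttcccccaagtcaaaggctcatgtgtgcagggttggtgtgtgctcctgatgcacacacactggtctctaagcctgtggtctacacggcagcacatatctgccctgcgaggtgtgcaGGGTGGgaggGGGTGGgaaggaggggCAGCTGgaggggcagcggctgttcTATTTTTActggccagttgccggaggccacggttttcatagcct
Tnni3, chr7:4522529-4522778, minus strand: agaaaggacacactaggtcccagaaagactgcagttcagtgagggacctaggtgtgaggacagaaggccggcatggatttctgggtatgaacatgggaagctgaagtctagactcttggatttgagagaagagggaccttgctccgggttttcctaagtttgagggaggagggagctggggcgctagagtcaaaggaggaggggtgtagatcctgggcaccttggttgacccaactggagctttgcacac
The Tnnt1 window held a CCACCC match on the opposite strand starting 230 bases before the start and a TATAAA match 30 bases before it. The Tnni1 window held CCACCC on the opposite strand at 94 and 84 bases, CAGCTG at 68 bases and TAAAAATA on the opposite strand at 44 bases before the start. Counted from a second annotated start of Tnni1, the same matches lay 184, 174, 158 and 134 bases before it. The Tnni3 window held none of the 7 motifs. Among 32536 RefSeq promoter windows of this length, 28.1% held CCACCC, 12.3% TATAAA, 13.1% CAGCTG, 2.43% TAAAAATA, 12.6% CATTCC, 7.79% TGATAA and 9.97% AGATAA. A match is a run of letters and not evidence of binding. RefSeq windows were found for 6 of the 8 genes, in 8 windows. Those of Tnnc2 and the second start of Tnnt2 held no match, the first start of Tnnt2 held CAGCTG and also AGATAA and CATTCC, and that of Tnnc1 held CCACCC and CATTCC. Tnnt3 and Tnni2 had no entry.

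Tnni1, which encodes slow skeletal troponin I, gave 3929, 3511, 3083 and 3198 in the Hira CKO mice, against 1816, 1818, 1968 and 1992 in the control mice. The lowest Hira CKO mouse was above the highest control mouse. The means were 3430 ± 379 in Hira CKO and 1899 ± 94.9 in control (SD, n = 4 each), a log2 difference of 0.85 (SE 0.10). The single arrays also separated, from 3010 to 4736 in Hira CKO and from 1508 to 2414 in control. Mouse CKO_6300 was the highest of the Hira CKO mice for both Tnnt1 and Tnni1, and mouse CKO_6672 the lowest for both.

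Tnnc1, which encodes the troponin C shared by slow skeletal and cardiac muscle, gave 253338, 260718, 279307 and 283830 in the Hira CKO mice, against 273903, 221657, 254814 and 260324 in the control mice. The groups overlapped. The means were 269298 ± 14603 in Hira CKO and 252675 ± 22180 in control (SD, n = 4 each), a log2 difference of 0.09 (SE 0.09). The slow T and I genes were higher, and the troponin C gene of the same fibre type showed a difference about as large as its standard error.

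Tnnt2, which encodes cardiac troponin T, gave 251636, 237742, 242518 and 252279 in the Hira CKO mice, against 209296, 222617, 239213 and 245135 in the control mice. The means were 246044 ± 7107 in Hira CKO and 229065 ± 16265 in control (SD, n = 4 each), a log2 difference of 0.11 (SE 0.08). The groups overlapped, and the sign turned to -0.06 when array number 2 was used alone. The probes of Tnnt2, Tnni3 and Tnnc1 read near the top of the signal range, where the highest value of an array was between 329103 and 469800, and whether their signal is compressed there was not tested.

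Tnni3, which encodes cardiac troponin I, gave 291162, 296023, 309462 and 294156 in the Hira CKO mice, against 286008, 241275, 306751 and 83786 in the control mice. The low value of mouse control_6497 came from 1 array. Its arrays read 311325, 7484 and 252429, and the other 23 arrays of the series read between 211974 and 385191. The log2 difference was 0.54 (SE 0.37) with all arrays and 0.10 without that array, a setting chosen after the value was seen. With the median in place of the mean of the 3 arrays it was 0.07. Over all arrays, 226 probes had a median intensity above 100000, and 6 readings of such probes, on 5 of 24 arrays, fell more than 8-fold below the other arrays of the same mouse. All 6 were on control arrays, and 4 of them were on arrays of mouse control_6497. On the array in question Tnni3 was the only such reading of a bright probe, and of 11006 probes with a median above 1000, 7 fell as far there, where the 24 arrays had between 0 and 7.

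**Figure D2:**
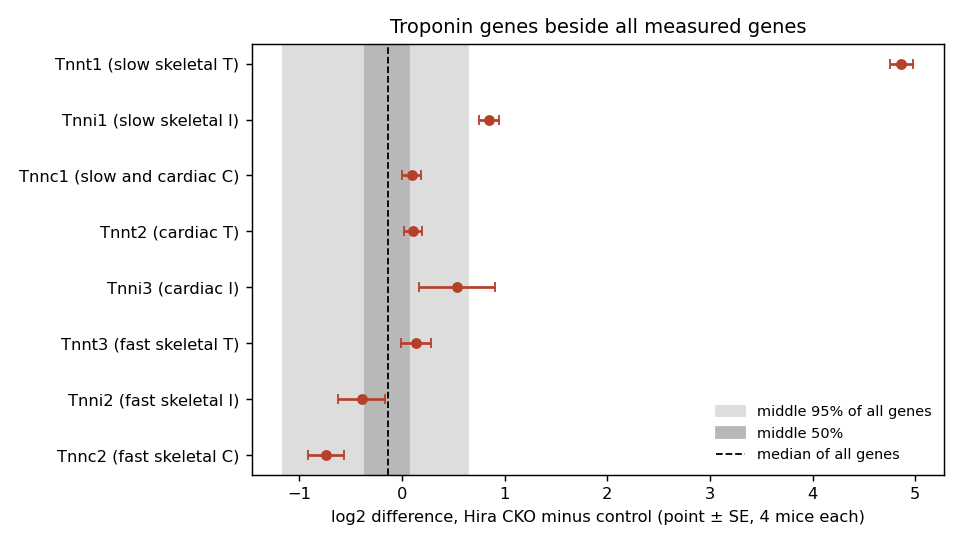
The log2 difference of each troponin gene (point, with its standard error as a bar) over grey bands that hold the middle 50% and the middle 95% of all 17742 genes, with the median of all genes dashed. Tnnt1, at 4.86, and Tnni1, at 0.85, lie to the right of both bands, and the wide bar of Tnni3 (SE 0.37) goes with the single low array.

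Tnnt3, which encodes fast skeletal troponin T, gave 554, 598, 569 and 647 in the Hira CKO mice, against 462, 538, 473 and 713 in the control mice. Mouse control_6497 was the highest of all 8, and the groups overlapped. The log2 difference was 0.13 (SE 0.14), and 0.27 without mouse control_6497.

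Tnni2, which encodes fast skeletal troponin I, gave 1156, 1247, 1145 and 2264 in the Hira CKO mice, against 1584, 1636, 1899 and 2249 in the control mice. Within the Hira CKO group, mice CKO_6300, CKO_6499 and CKO_6672 lay below every control mouse, and mouse CKO_6707 lay above every control mouse. All 3 arrays of mouse CKO_6707 read high, at 2194, 2369 and 2234. The log2 difference was -0.39 (SE 0.23) with all mice and -0.63 without mouse CKO_6707.

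Tnnc2, which encodes fast skeletal troponin C, gave 157, 156, 156 and 174 in the Hira CKO mice, against 240, 237, 227 and 403 in the control mice. Every Hira CKO mouse was below every control mouse. The means were 161 ± 8.69 in Hira CKO and 277 ± 84.5 in control (SD, n = 4 each), a log2 difference of -0.74 (SE 0.18), and -0.54 without mouse control_6497. Tnnc2 had the dimmest of the 8 troponin probes, and with 50 added to each intensity its difference was -0.60. Of the single arrays, the highest in Hira CKO (205.8) and the lowest in control (205.9) were next to each other.

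The fast forms shared their highest mouse in each group. Mouse control_6497 had the highest value among control mice, and mouse CKO_6707 the highest among Hira CKO mice, for each of Tnnt3, Tnni2 and Tnnc2. In mouse CKO_6707 all 3 arrays read high for Tnni2 only. Its arrays read 547.1, 798.6 and 619.5 for Tnnt3, and 205.8, 153.3 and 166.9 for Tnnc2. For these 2 genes its place leaned on 1 array. Markers of skeletal muscle fibres were read beside them. Only 4 of the 15 listed markers were measured (Actn3, Atp2a1, Pvalb and Pax7). Actn3, Pvalb and Pax7 were dim, between 69.3 and 200.6 over all mice, where the 5th percentile of a control array reached 108.5. Whether these readings lie above background was not tested. Their summed intensity, most of it from Atp2a1, was between 613.5 and 811.6 in Hira CKO mice and between 565.6 and 1264 in control mice, highest in mouse CKO_6707 and mouse control_6497 within their groups. Atp2a1, the calcium pump of fast fibres, read 805 in mouse control_6497 and between 254 and 565 in the other control mice. Pvalb, the calcium buffer parvalbumin, read 201 in mouse control_6497 and between 76.9 and 107 in the other control mice. The other markers did not follow this order in full. Actn3, the α-actinin of fast fibres, was highest in mouse control_6497 among controls, at 148, but lowest in mouse CKO_6707 among Hira CKO mice, at 82.1. Pax7, a factor of muscle satellite cells, was highest in mouse control_6299 and in mouse CKO_6300. Of 12 measured fast or skeletal muscle genes other than troponins, 5 were highest among controls in mouse control_6497, and 6 were highest among Hira CKO mice in mouse CKO_6707. The 6 include Actn2, which is also on the list of ventricular cardiomyocyte markers. The share of all genes highest in these mice is not given here, so nothing is read from the counts. The part of skeletal muscle RNA in the fast troponin values was not tested.

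Whether other muscle genes differed was read from fixed lists, by the test over all 17742 genes (limma, Benjamini-Hochberg). Over 8 lists of muscle and regulatory genes, 28 of 149 measured genes passed (18.8%), 14 higher and 14 lower, where 14.6% of all genes did.

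Among thin filament partners of troponin, 2 of 24 measured genes rose and 1 fell. Acta2, smooth muscle α-actin, averaged 160728 ± 30798 in Hira CKO and 87813 ± 17118 in control (SD, n = 4 each), a log2 difference of 0.87 (limma adjusted p = 0.0166). Lmod3, an actin filament nucleator, rose by 0.68 (limma adjusted p = 0.0261), and Neb, the filament scaffold nebulin, fell by 0.83 (limma adjusted p = 0.0392). Tropomyosin and cardiac actin, on which troponin sits, did not pass. Tpm1 had a log2 difference of 0.01 (SE 0.11), Tpm3 -0.08 (SE 0.08) and Actc1 0.03 (SE 0.11). The value of Tpm1 depended on the probe choice. Averaging all probes of Tpm1 gave -0.31, which did not pass either. Tpm2 read 3831 in Hira CKO and 2325 in control without passing (limma adjusted p = 0.0706). The median over the list was 0.02.

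Of thick filament and M-band genes, 5 of 25 were measured, and 1 passed: Trim63, a ubiquitin ligase of the sarcomere, fell by 0.64 (limma adjusted p = 0.0438). The myosin heavy chain genes of that list were not analysed here. Among other slow skeletal muscle genes, 2 of 11 measured rose and 1 fell, with a median of 0.15. Myh7, Myh7b, Mybpc1, Myl2 and Myl3 of this list of 19 were not measured. Atp2a2, Casq2, Pln and Mb averaged between 205142 and 273555 in control, so the median partly covers genes abundant in control ventricle. Csrp3, the Z-disc protein MLP, fell by 0.43 (limma adjusted p = 0.0261) and Ankrd2, a stretch-responsive ankyrin repeat protein, rose by 0.30 (limma adjusted p = 0.0438). Lmod3 was the other gene that rose.

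Among other fast skeletal muscle genes, 1 of 11 measured rose and 3 fell, with a median of -0.48. Scn4a, the skeletal muscle sodium channel, averaged 62.6 ± 11.3 in Hira CKO and 913 ± 309 in control (SD, n = 4 each), a log2 difference of -3.81 (limma adjusted p = 0.000121). The Hira CKO values were near the low end of the arrays. The 5th percentile was between -11.1 and 50.5 on Hira CKO arrays and between 3.94 and 108.5 on control arrays. Its median over arrays was 20.3 in Hira CKO and 40.2 in control, so the low end itself differed between groups. With 50 added to each intensity the difference of Scn4a was -3.03. Casq1, the calsequestrin of fast fibres, averaged 796 ± 319 in Hira CKO and 4604 ± 1010 in control (SD, n = 4 each), a log2 difference of -2.60 (limma adjusted p = 0.00145). Cacna1s, the skeletal muscle calcium channel, fell by 0.88 (limma adjusted p = 0.017), and Jsrp1, a junctional reticulum protein, rose by 0.47 (limma adjusted p = 0.0304). Casq1, like the fast troponins, was highest among controls in mouse control_6497, at 5599 against 3728 to 5350 in the others. Scn4a was lowest there, at 512, so the fast genes did not order the control mice alike.

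Among fetal and stress genes of the ventricle, 5 of 21 measured rose and 2 fell, with a median of 0.29. Nppb, a natriuretic peptide of the strained ventricle, averaged 155095 ± 35883 in Hira CKO and 35091 ± 18235 in control (SD, n = 4 each), a log2 difference of 2.24 (limma adjusted p = 0.00353). Nppa, the atrial natriuretic peptide, rose by 1.74 (limma adjusted p = 0.000479), Ankrd1, a cardiac ankyrin repeat protein, by 1.64 (limma adjusted p = 0.000304) and Ccnd2, a D-type cyclin, by 0.83 (limma adjusted p = 0.00785). Acta2 was the fifth. Nppa read between 343044 and 375090 in Hira CKO, near the top of the signal range like the cardiac troponins, as did Actc1 in both groups. Igf2, a fetal growth factor, fell by 0.59 (limma adjusted p = 0.0383). Hcn4, the pacemaker channel, passed as lower (limma adjusted p = 0.0354), but its 24.4 ± 14.1 in Hira CKO and 59.0 ± 5.13 in control (SD, n = 4 each) lay at the low end of the arrays. The difference of Hcn4 was -1.46, and -0.52 with 50 added to each intensity.

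Among kinases, phosphatases and partners that act on troponin, 1 of 29 measured rose and 2 fell, with a median of -0.03. Mapk14, the p38α kinase, fell by 0.73 (limma adjusted p = 0.0138) and Camk2g, a calmodulin-dependent kinase, by 0.45 (limma adjusted p = 0.0335), while Ppp1cc, a phosphatase catalytic subunit, rose by 0.36 (limma adjusted p = 0.0297). Prkaca, the catalytic subunit of the protein kinase that phosphorylates cardiac troponin I, had a log2 difference of -0.11 (limma adjusted p = 0.457).

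In a list of transcription factors and cofactors chosen as regulators of muscle troponin genes, 5 of 37 measured rose and 3 fell, with a median of -0.10. Whether they act on troponin genes in these hearts was not tested. Tbx15, a T-box factor of skeletal muscle, averaged 711 ± 227 in Hira CKO and 163 ± 15.3 in control (SD, n = 4 each), a log2 difference of 2.08 (limma adjusted p = 0.000777). Hopx, a homeodomain protein of cardiomyocytes, rose by 0.74 (limma adjusted p = 0.00108). Vgll2, a cofactor of TEAD factors in muscle, rose by 0.68 (limma adjusted p = 0.00908) and Tead3 by 0.65 (limma adjusted p = 0.00939). Vgll2 was dim, at 124.5 ± 15.2 in Hira CKO and 77.4 ± 6.84 in control (SD, n = 4 each), and its single arrays overlapped. The size of its difference varied, at 0.44 with 50 added to each intensity and 0.997 after quantile normalization. Tead1, another member of the TEAD family that binds the MCAT element, was lower, at 37043 ± 2212 in Hira CKO and 50985 ± 2947 in control (SD, n = 4 each; limma adjusted p = 0.0133). Tbx5, another T-box factor, fell by 0.72 (limma adjusted p = 0.0155) and Irx4 by 0.63 (limma adjusted p = 0.0313). Among splicing factors that act on troponin T transcripts, 0 of 19 measured rose and 1 fell: Mbnl1, a muscleblind protein, by 0.48 (limma adjusted p = 0.0335). Splice forms of troponin T cannot be told apart with 1 probe a gene.

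**Figure D3:**
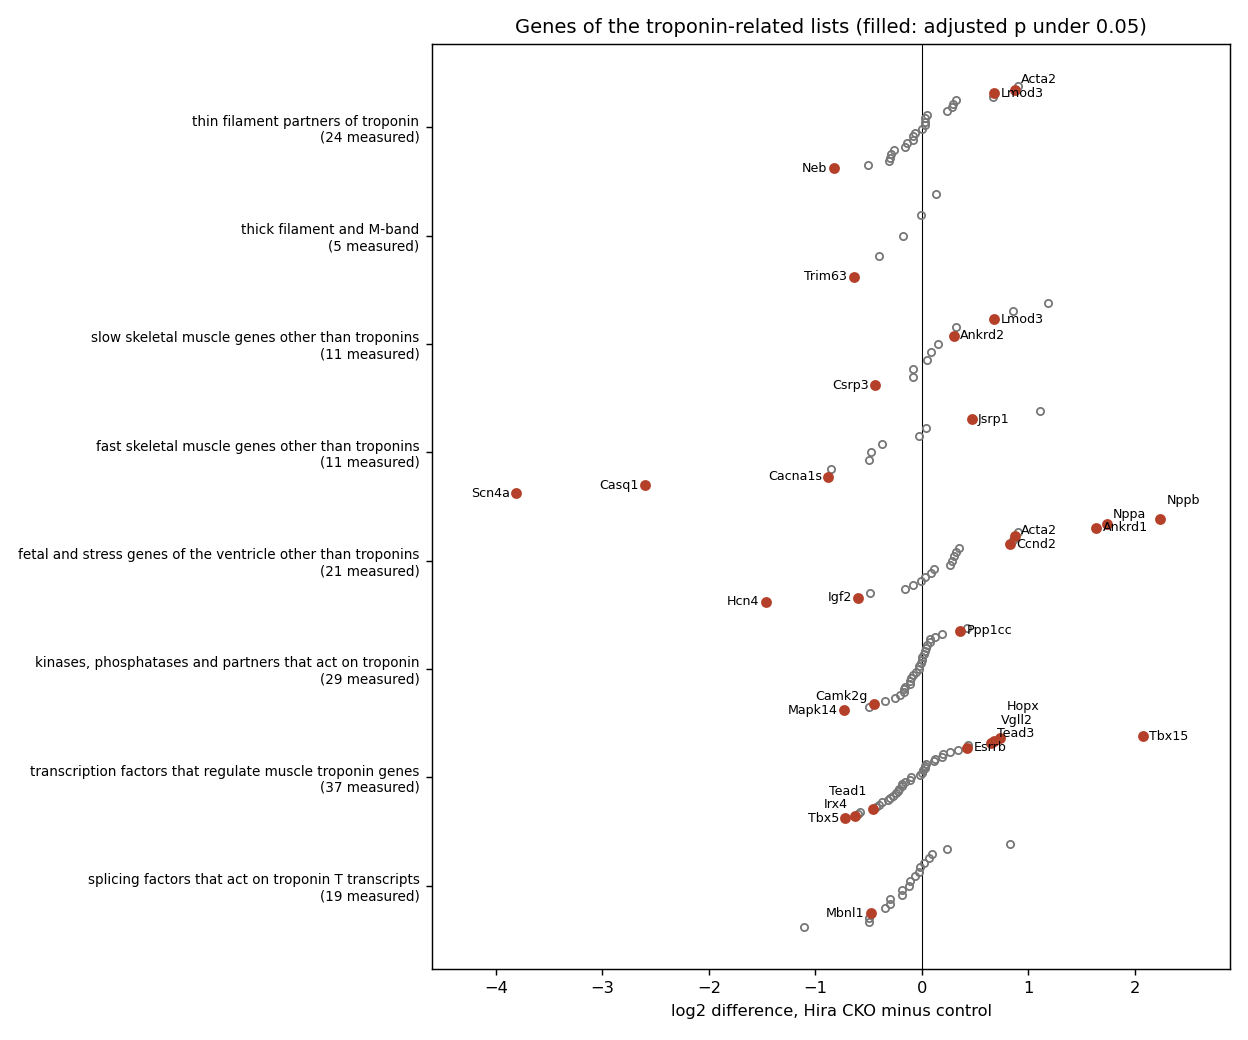
The log2 difference (horizontal axis, Hira CKO minus control) of each measured gene of the 8 muscle and regulatory lists, 1 row of points a list, sorted by value within it, filled and named where the adjusted p was under 0.05. Scn4a and Casq1 lie farthest to the left, at -3.81 and -2.60, and Nppb, Tbx15, Nppa and Ankrd1 farthest to the right, between 1.64 and 2.24.

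Genes next to the troponin genes on the map were read because T and I genes lie in pairs: Tnnt1 beside Tnni3 and Tnni2 near Tnnt3, all on chromosome 7, and Tnni1 near Tnnt2 on chromosome 1. Within the pairs the log2 differences were 4.86 for Tnnt1 with 0.54 for Tnni3, 0.85 for Tnni1 with 0.11 for Tnnt2, and -0.39 for Tnni2 with 0.13 for Tnnt3. The 3 nearest measured genes on each side gave 32 neighbours that are not troponins, of which 3 rose and 8 fell, where 4.94% of all genes rose and 9.65% fell. Their median was -0.16, beside -0.14 over all genes. Beside Tnnt1, Ppp1r12c, a phosphatase regulatory subunit, averaged 5250 ± 521 in Hira CKO and 7315 ± 600 in control (SD, n = 4 each), a fall of 0.48 (limma adjusted p = 0.0216). Dnaaf3, a dynein assembly factor on the far side of Tnni3, fell by 1.06 (limma adjusted p = 0.00649). Between Tnni1 and Tnnt2, Lad1, which encodes ladinin, averaged 141 ± 25.7 in Hira CKO and 1215 ± 451 in control (SD, n = 4 each), a log2 difference of -3.04 (limma adjusted p = 0.000363). Pkp1, the desmosomal protein plakophilin beyond Tnnt2, rose by 0.45 (limma adjusted p = 0.017). Past Tnnt3, the imprinted pair H19 and Igf2 fell by 0.56 (limma adjusted p = 0.0413) and 0.59 (limma adjusted p = 0.0383). Next to Tnnc2, Snx21, a sorting nexin, rose by 0.71 (limma adjusted p = 0.00378). Of the 6 neighbours of Tnnc1, Nt5dc2, a nucleotidase domain protein, passed and fell by 0.82 (limma adjusted p = 0.0441).

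**Figure D4:**
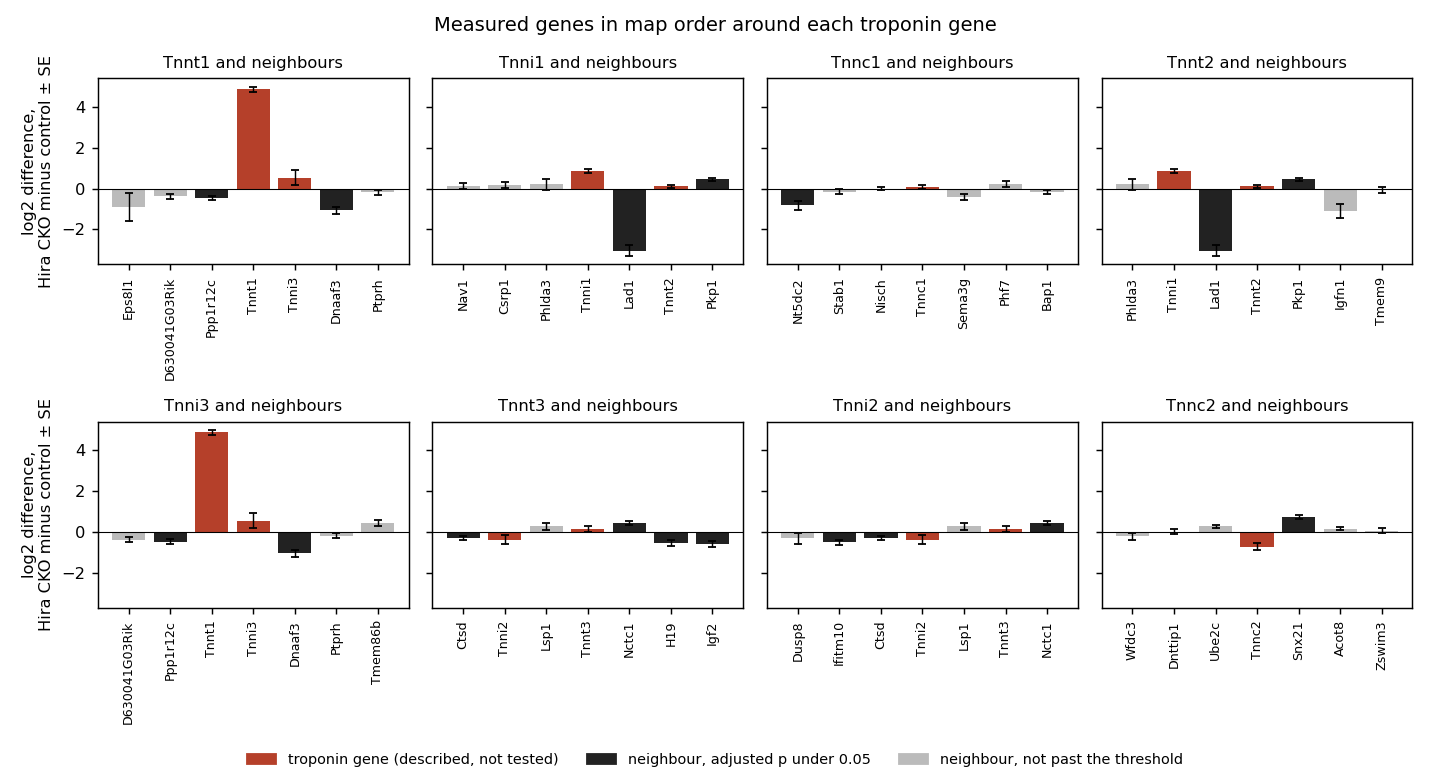
The log2 difference (vertical axis, with its standard error as a bar) of each troponin gene and the 3 nearest measured genes on either side in map order, red for troponin genes, black for neighbours with an adjusted p under 0.05 and grey for the rest. Tnnt1, at 4.86, stands next to Ppp1r12c, which fell by 0.48, and Tnni1, at 0.85, stands next to Lad1, at -3.04.

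Genes most like Tnnt1 over the 8 mice were found by the root mean square difference of log2 values centred on each gene's mean. They were Cdh16 (a kidney cadherin, 0.28), Nefm (a neurofilament, 0.33), Dlx5 (a homeobox factor, 0.43), Slc44a3 (a choline transporter-like protein, 0.90) and Psca (a cell surface antigen, 0.91). Cdh16 averaged 6983 ± 1232 in Hira CKO and 272 ± 13.5 in control, and Dlx5 averaged 4925 ± 514 in Hira CKO and 304 ± 46.4 in control (SD, n = 4 each). Pearson's r with Tnnt1 was between 0.986 and 0.999 over the 8 mice, which fall into 2 groups, so r follows the group difference for the most part. None of the 5 was a troponin. Among the other troponin genes, Tnni1 was the nearest, 232nd of all genes, at 2.01.

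**Figure D5:**
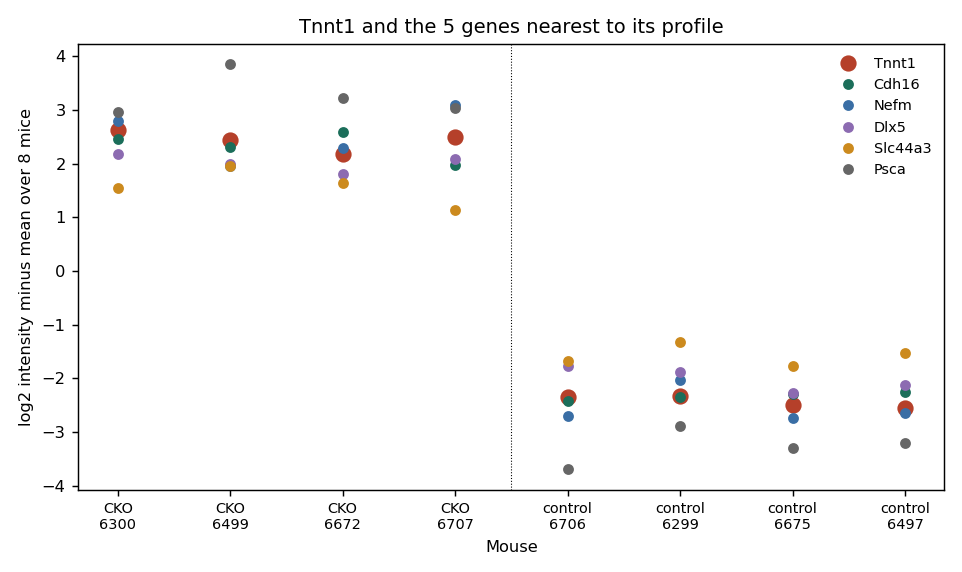
Log2 intensity minus the gene's mean over 8 mice (vertical axis) for Tnnt1 and the 5 genes nearest to it, by mouse, Hira CKO left and control right. All 6 genes are above 0 in the 4 Hira CKO mice and below 0 in the 4 control mice.

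Tissue makeup was read from marker lists, and in bulk tissue fewer cells of a type and less RNA per cell cannot be told apart. Of ventricular cardiomyocyte markers, 0 of 6 measured rose and 1 (Irx4) fell, and their summed intensity was between 1232880 and 1416812 in Hira CKO and between 1288959 and 1424547 in control. Nppa was the 1 atrial marker of 7 that passed, and the list had a median of -0.30. Its sum was between 351297 and 383605 in Hira CKO and between 97712 and 147575 in control, most of it from Nppa. Acta2 was the 1 smooth muscle marker of 7 that passed, and the other 6 had negative differences that did not pass, for a median of -0.38. Cd68, a lysosomal protein of macrophages, rose by 0.70 (limma adjusted p = 0.0272), while the median of the 8 macrophage markers was -0.18. Of 6 Schwann cell markers 1 passed, the myelin gene Mbp, which rose by 0.89 (limma adjusted p = 0.0101), but averaging all its probes gave 0.27 (limma adjusted p = 0.108).

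The 9 epicardial and mesothelial markers all had negative differences, with a median of -0.41, and Upk3b and Upk1b, uroplakins of mesothelium, passed. The sum of the 9 markers was between 7255 and 8774 in Hira CKO and between 10918 and 12719 in control, so the groups did not overlap. Upk3b, at 2171 in Hira CKO and 4377 in control, gave the largest part of this step. Of all single genes, 23.4% had groups that did not overlap. The 9 endothelial markers were also all negative, with a median of -0.22, and 0 passed in limma. Beside these list medians, the median over all genes was -0.14, and -0.02 after quantile normalization. Pecam1, an endothelial adhesion molecule, had a difference of -0.38 (limma adjusted p = 0.0618) and Kdr, a VEGF receptor, of -0.39 (limma adjusted p = 0.0873), the 2 of the list with an unadjusted p under 0.05. Among 9 fibroblast markers 0 passed in limma, and 3 had an unadjusted p under 0.05: the collagen gene Col1a1, at -0.52, and Col1a2 and Postn, at 0.51 and 0.49. Their list summed to between 264517 and 322897 in Hira CKO and between 276385 and 296863 in control. Of the erythroid list 2 genes were measured and 0 passed in limma, Alas2 at -0.25 (SE 0.76) and Slc4a1 at -0.54 (SE 0.54), with 0 at an unadjusted p under 0.05. Pax7, of the skeletal muscle list, passed at -0.39 (limma adjusted p = 0.0424), but was -0.10 (limma adjusted p = 0.537) after quantile normalization and -0.06 (limma adjusted p = 0.772) after cyclic loess. The part of cell makeup in the troponin values was not tested. The Hira probe read 200.2 ± 25 in Hira CKO and 229.0 ± 26.7 in control (SD, n = 4 each), a log2 difference of -0.20 (limma adjusted p = 0.282), and since its place relative to the deleted exon is not known it checks nothing.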

How the data were processed

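Left ventricular RNA of 4 Hira CKO and 4 control mice was hybridized to 3 MouseOne Array Plus single-colour arrays a mouse. The authors deposited linear intensity values after median scaling, and the median of each array is 513.2. Intensities below 0, up to 2429 probes on an array, show that background had been subtracted. The method of subtraction and the image software are not given in the sources used here. Intensities under 1 were raised to 1 before log2, and the number of mice, 4 in each group, limits the precision.

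Probe symbols were updated with the RefSeq gene table of GRCm38.p6, giving 17742 genes from 20377 named probes. The other 6046 probes named no single gene and were not in the fit over genes. A gene not measured here can therefore still have a probe on the array. The table was used for names and gene order only, since no build is named for the array. For genes with several probes the one with the highest mean was used. The 3 arrays of a mouse were averaged on the log2 scale. Groups were compared by limma 3.58.1 (lmFit and eBayes, no covariate) in R 4.3.3, with Benjamini-Hochberg adjustment and a threshold of 0.05. The code was tested on simulated data. The named genes were all 8 troponin genes, the 4 called genes with the smallest p in each list, or 2 genes in a list with no call, the 3 measured genes on each side of a troponin gene, and the 5 genes nearest to Tnnt1. Tpm1, Tpm2, Tpm3, Actc1, Prkaca, Tead1, Tbx5, Hcn4, Igf2, Actn2, Actn3, Atp2a1, Pvalb and Col1a1 were named outside this rule, with their values known, to describe a list. The members and lists were chosen with earlier results of these data known. Python 3.11.15, pandas 2.3.3 and matplotlib 3.10.9 were used for tables and plots.

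Other settings tried were between-array normalization by quantiles or by cyclic loess, 50 added to each value, removal of dim probes, other probe choices, other variance models and tests, leaving out each mouse, and leaving out or using alone each array number. The labels do not state whether arrays of 1 number were run together.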

Additional observations from a re-analysis of the deposited data

Results flagged for a closer look

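In 94 groups of 4 mice, 6 held a mouse whose gap to the nearest other mouse exceeded Dixon's critical share of the group's range for 4 samples, where chance gives about 1 in 20. Tnni2 read 2264 in mouse CKO_6707 and between 1145 and 1247 in the other 3 Hira CKO mice. Tnnc2 read 174 in the same mouse and between 156.3 and 157.3 in the others, a small step beside the spread of its 3 arrays (205.8, 153.3 and 166.9). Tnnc2 read 403.1 in mouse control_6497 and between 226.8 and 239.7 in the other control mice. Lmod3 read 16991 in mouse CKO_6707, its lowest, and between 19950 and 20420 in the others. Scn4a read 79.42 in mouse CKO_6300 and between 55.34 and 58.77 in the others. Nefm read 169.2 in mouse control_6299 and between 103.7 and 110.2 in the others. The Tnni3 value of mouse control_6497 was not among them.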

How the results depend on the processing

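The log2 difference of Tnnt1 was between 4.72 and 5.00 in all 26 alternatives, and between 4.80 and 4.95 with each mouse left out. Each troponin gene kept its sign in all 26, except Tnnt2 with array number 2 alone (-0.06). Tnnt1 was past the threshold in every setting. Tnni1 was past it in every setting other than array number 1 alone. Tnnc2 lost it with the methods' t-test, without mouse control_6706, control_6299 or control_6675, without mouse CKO_6499, CKO_6672 or CKO_6707, without array number 3 and with each array number alone, and without mouse CKO_6707 Tnni2 passed instead. These troponin calls are a description, as above. Tnni3 was 0.12 without array number 2, 0.11 without mouse control_6497 and 1.36 with array number 2 alone.

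Over all genes 2588 passed. The count was 1671 with the methods' t-test, 937 to 4484 with a mouse left out (lowest without mouse control_6675, highest without mouse CKO_6300), 1653 and 1078 without array numbers 2 and 3, and 573, 1011 and 427 with array numbers 1, 2 and 3 alone. List genes past the threshold numbered 28, and 14 to 36 with a mouse left out, 15 without array number 3, 11, 15 and 11 with array numbers 1, 2 and 3 alone, and 46 with the mouse as a random block. With the array number added as a replicate block it was also 46, and the count over all genes was 3726, beside 3864 with the random block alone. Deviations of same-numbered arrays of different mice had a median correlation of -0.04, between -0.83 and 0.65. For arrays of different numbers from different mice the median was 0.03. A median cannot show whether some arrays of 1 number were run together, so nothing is concluded on pairing.

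The share of calls that were higher was 33.8%, 56.2% after quantile normalization and 59.4% after cyclic loess, beside medians over all genes of -0.14, -0.02 and -0.01. Of 41 genes past the threshold that were named from the lists or lay beside a troponin gene on the map, 10 passed in all 26 alternatives (Scn4a, Casq1, Ankrd1, Nppa, Nppb, Tbx15, Hopx, Dnaaf3, Lad1 and Snx21) and 17 with any 1 mouse left out. The other 24 (Acta2, Cacna1s, Pkp1, Lmod3, Neb, Trim63, Csrp3, Ankrd2, Jsrp1, Ppp1cc, Camk2g, Mbnl1, Irx4, Pax7, Cd68, Upk1b, Hcn4, Igf2, H19, Ppp1r12c, Ctsd, Nctc1, Ifitm10 and Nt5dc2) lost the call without at least 1 mouse, and for Acta2, Cacna1s and Pkp1 this was mouse control_6675 alone. Pax7 passed in 5 of 26 alternatives and Hcn4 in 7. Tbx5 was not among the 41 genes, and its alternatives are not given here. The causes were not tested.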
